A study of Bos taurus with 6 samples.

Results

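IL6, OLR1, SERPINB2 and AQP9 are 4 of the 29154 genes counted in bovine mammary epithelial cells after inhibition of miR-375. They were selected on the contrast described here: each is paired with its symbol in the study's list of 63 differentially expressed genes, whose criteria were a DESeq2 p under 0.05 and a log2 fold change beyond 1 in size. Their difference between the groups is therefore a description, and no test of it is given. RNA was sequenced from MAC-T cells, an established bovine mammary epithelial line, transiently transfected in culture. The 3 inhibitor NC libraries came from cells given 100 nM of a negative control inhibitor, and the 3 miR-375 inhibitor libraries from cells given 100 nM of an inhibitor of that microRNA. Both groups were collected 48 h after transfection, and total counts per library ran from 14479278 to 16324556. The labels speak of a triplicate experiment but do not say that the libraries came from separate cultures, so p-values measure only the spread between these samples, which may be technical.

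Interleukin 6 is a secreted cytokine that signals through a receptor complex to STAT3 and drives the acute phase response, and mammary epithelial cells can release it when they meet bacteria or their products. The other 3 genes act at other points of inflammation. OLR1 encodes LOX-1, a C-type lectin scavenger receptor for oxidised low-density lipoprotein. SERPINB2 encodes plasminogen activator inhibitor type 2, which inhibits urokinase and is strongly induced in inflammation. AQP9 encodes an aquaglyceroporin, a channel for water, glycerol and other small uncharged solutes that is abundant in liver and leukocytes.

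All 4 genes had a lower mean level in the miR-375 inhibitor libraries, and in 3 of them the groups overlapped. Levels are given as counts and as CPM, which sets each count against its library's size after edgeR's trimmed mean of M values (TMM). Fold changes are edgeR's fitted values, inhibitor over inhibitor NC, with a standard error (SE). For edgeR the SE was derived, as the size of the log2 fold change over the square root of the F statistic. That F uses a dispersion drawn toward that of other genes, so the SE does not measure the spread of these libraries alone. In bulk samples, fewer cells of a type and less RNA per cell cannot be told apart. Of the 14154 genes averaging 10 counts or more per library, 33 had a fitted log2 fold change under -1, or 0.233%, and the members are among them by choice.

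IL6 (ENSBTAG00000014921), the secreted ligand, had 336, 273 and 134 counts in inhibitor NC replicates 1, 2 and 3, and 109, 141 and 82 in miR-375 inhibitor replicates 1, 2 and 3. The level was 16.02 ± 7.41 CPM (SD, n = 3) in inhibitor NC and 7.27 ± 2.25 CPM (SD, n = 3) in miR-375 inhibitor. Inhibitor NC replicates 1 and 2 lay above all other libraries, whereas inhibitor NC replicate 3, at 8.28 CPM, lay below miR-375 inhibitor replicate 2, at 9.54 CPM, so that the groups overlapped. The log2 fold change was -1.14 (SE 0.18). Over the other fits by group its SE ran from 0.13 without inhibitor NC replicate 3 to 0.49 in DESeq2, with 0.30 when genes with fewer than 10 counts over all libraries were left out and 0.31 with filterByExpr. It was -0.79 without inhibitor NC replicate 1 and -1.46 without inhibitor NC replicate 3.

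OLR1 (ENSBTAG00000004547), the scavenger receptor, had 68, 64 and 24 counts in inhibitor NC and 17, 31 and 18 in miR-375 inhibitor, in the order of the replicate numbers. The level was 3.36 ± 1.66 CPM (SD, n = 3) in inhibitor NC and 1.44 ± 0.566 CPM (SD, n = 3) in miR-375 inhibitor. The libraries stood in the same order as for IL6: inhibitor NC replicate 3, at 1.48 CPM, was again below miR-375 inhibitor replicate 2, at 2.10 CPM. The log2 fold change was -1.21 (SE 0.29), with -0.91 without inhibitor NC replicate 1 and -1.57 without inhibitor NC replicate 3.

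SERPINB2 (ENSBTAG00000023026), the protease inhibitor, had 33, 17 and 17 counts in inhibitor NC and 4, 15 and 12 in miR-375 inhibitor. The level was 1.45 ± 0.702 CPM (SD, n = 3) in inhibitor NC and 0.673 ± 0.379 CPM (SD, n = 3) in miR-375 inhibitor. This was the only member whose groups did not overlap, by the narrow gap between 1.04 CPM in inhibitor NC replicate 2 and 1.01 CPM in miR-375 inhibitor replicate 2. Among the same 14154 genes, 1250 had every miR-375 inhibitor library below every inhibitor NC library, or 8.83%, and nothing is read from that share since the same contrast chose the member. The log2 fold change was -1.08 (SE 0.40). It was -0.63 without inhibitor NC replicate 1, which held the highest count, -0.71 without miR-375 inhibitor replicate 1, which held the lowest, and -1.48 without miR-375 inhibitor replicate 2.

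The identity of the SERPINB2 row is uncertain. The study's list pairs it with the symbol SERPINB2 but describes a gene that RefSeq (assembly ARS-UCD2.0) lists as LOC281376, apart from the gene it names SERPINB2, and both carry the synonym PAI2. In that assembly both lie on chromosome 24. LOC281376 lies next to SERPINB8, while SERPINB2 lies between LOC522479 and SERPINB10. Their similarity in sequence was not measured, so whether the counting could divide reads between them is not known, and no row for the second gene was analysed here.

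AQP9 (ENSBTAG00000013452), the channel, had the fewest counts of the members in total, 63, with 22, 17 and 7 in inhibitor NC and 8, 7 and 2 in miR-375 inhibitor. The level was 0.994 ± 0.540 CPM (SD, n = 3) in inhibitor NC and 0.376 ± 0.221 CPM (SD, n = 3) in miR-375 inhibitor. Inhibitor NC replicates 1 and 2 were the highest libraries, and inhibitor NC replicate 3, at 0.432 CPM, lay below miR-375 inhibitor replicates 1 and 2, at 0.530 and 0.473 CPM. The 2 counts of miR-375 inhibitor replicate 3 lie under a floor of 3 counts, which is 0.184 CPM of that library's total. The log2 fold change was -1.39 (SE 0.52). It was -0.98 without inhibitor NC replicate 1, -0.96 without miR-375 inhibitor replicate 3, -1.73 without miR-375 inhibitor replicate 1 and -1.76 without inhibitor NC replicate 3.

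**Figure D1:**
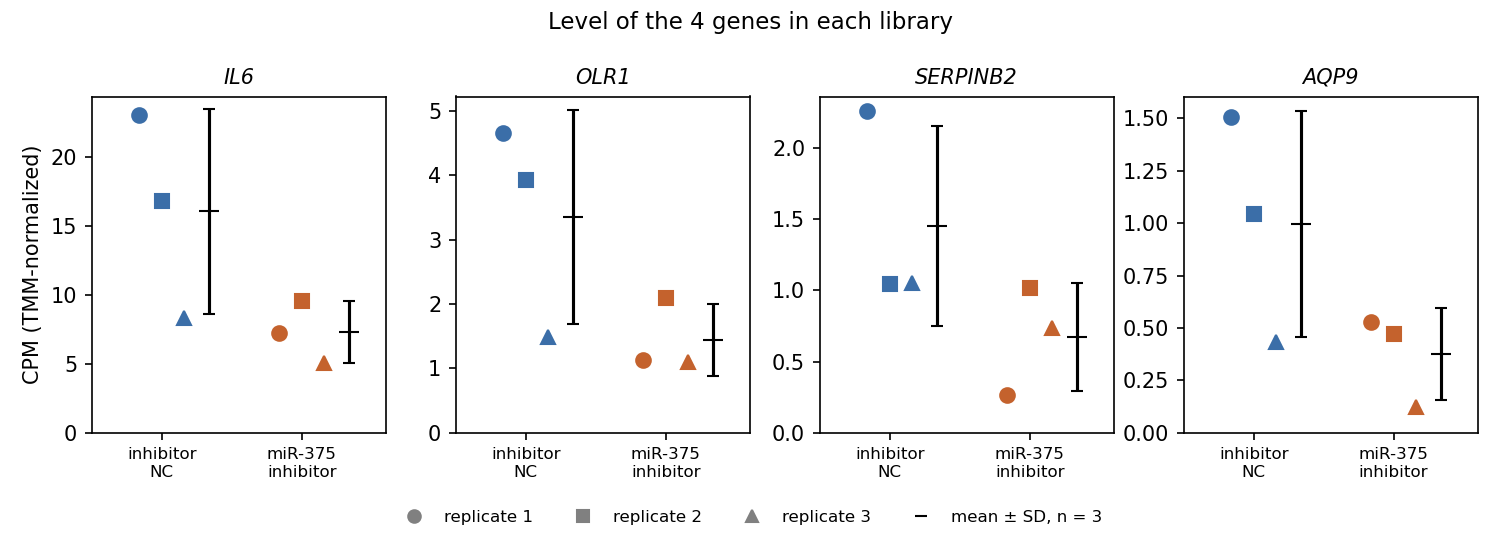
TMM-normalized CPM of IL6, OLR1, SERPINB2 and AQP9 in each library, on a separate linear axis from 0 for each gene. Circles, squares and triangles are replicates 1, 2 and 3, and the black bars are the group mean ± SD (n = 3); inhibitor NC replicate 3 lies below the highest miR-375 inhibitor library for IL6, OLR1 and AQP9.

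Of the members, SERPINB2 lay closest to the fold threshold of the selection. In a DESeq2 fit of the same counts its log2 fold change was -1.10, against -1.14 for IL6, -1.22 for OLR1 and -1.41 for AQP9. Neighbours of the threshold were sought among genes with a symbol, a lower level in miR-375 inhibitor and an unadjusted DESeq2 p under 0.05. The selection also asked for that p. The nearest just inside was RPE65 at -1.002, and the nearest just outside was RTP4 at -0.68. Only 1552 of 29154 identifiers had a symbol, while genes on the study's list were paired wherever it gave one. Nothing is therefore read from the gap between RPE65 and RTP4. Over all genes the edgeR group contrast gave an adjusted p under 0.05 for 249 genes with lower counts in miR-375 inhibitor, or 1.2% of the 20755 tested, and for 101 with higher counts, or 0.487%. Both directions together made 350 genes, a count that depends on which low-count genes are kept, on single libraries and on the model. With replicate number added to the edgeR model it was 840. By edgeR it was 0 when genes with fewer than 10 counts over all libraries were left out, with 1972 at an unadjusted p under 0.05, and DESeq2 called 74 of the 6671 genes to which it gave an adjusted p. Without inhibitor NC replicate 1 it was 0 as well, with 1543 at an unadjusted p under 0.05, and without inhibitor NC replicate 3 it was 756. It was 167 without inhibitor NC replicate 2, 125 without miR-375 inhibitor replicate 1 and 204 without miR-375 inhibitor replicate 3.

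The members varied more within their groups than most genes. The pooled within-group SD of log2(CPM + 1) was 0.57 for IL6, higher than in 99.9% of those 14154 genes, where the median was 0.11. It was 0.50 for OLR1, at percentile 99.8, 0.37 for SERPINB2, at percentile 98.8, and 0.34 for AQP9, at percentile 98.0. With 5 added to CPM in place of 1, the SD was 0.23 for OLR1, 0.13 for SERPINB2 and 0.10 for AQP9. With 0.1 added it was 0.73 for SERPINB2 and 0.82 for AQP9. Low counts alone widen this spread, so it was also set against counting noise. The within-group variance of IL6 was 32.3 times that of Poisson counting, at percentile 98.4 of the same genes, and that of OLR1 was 8.24 times, at percentile 90.9. For SERPINB2 and AQP9 the ratios were 4.22 and 3.34, at percentiles 78.4 and 70.8, against a median of 1.998. The quasi-dispersion of the edgeR fit also allows for counting noise. It was taken after moderation, which draws each gene toward the common trend with 51.4 prior against 4 residual degrees of freedom. Its size is therefore not the gene's own spread alone. The moderated value was 1.83 for IL6, 1.30 for OLR1, 1.20 for SERPINB2 and 1.25 for AQP9, at percentiles 99.8, 99.2, 98.3 and 98.9. The measures thus placed IL6 high throughout and differed for SERPINB2 and AQP9. Inhibitor NC replicate 3 contributed most to the spread of IL6 and OLR1, whose SDs were 0.37 and 0.27 without it.

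Within inhibitor NC, replicate 1 was the highest library for all 4 genes. For IL6, OLR1 and AQP9 replicate 3 was the lowest, while SERPINB2 had 1.04 and 1.05 CPM in replicates 2 and 3. Within miR-375 inhibitor, replicate 2 was highest for IL6, OLR1 and SERPINB2, and replicate 1 for AQP9. Replicate 3 was lowest for IL6, OLR1 and AQP9, with OLR1 at 1.11 CPM there against 1.13 CPM in replicate 1, and SERPINB2 was lowest in replicate 1.

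Co-variation was measured over the 6 libraries on log2(CPM + 1), first on levels and then on deviations from the group means, which leave out the group difference that chose the members. On levels, Pearson's r was 0.98 for IL6 with OLR1 (Spearman's rho 1) and 0.98 for IL6 with AQP9 (rho 0.83), and 0.92 for OLR1 with AQP9 (rho 0.83). On deviations it was 0.95, 0.96 and 0.85 for the same pairs (n = 6 deviations, which hold 4 degrees of freedom). These values pool the deviations of both groups. Within miR-375 inhibitor alone, with 3 libraries, OLR1 and AQP9 differed in which library was highest. The r of OLR1 with AQP9 on deviations rested in part on inhibitor NC replicate 3 and was 0.50 without it, while IL6 kept an r of 0.85 with OLR1 and 0.88 with AQP9.

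SERPINB2 followed the other members less closely. On levels its r was 0.77 with IL6 (rho 0.77), 0.80 with OLR1 (rho 0.77) and 0.67 with AQP9 (rho 0.43). Leaving out inhibitor NC replicate 1 gave 0.47, 0.59 and 0.19 for these pairs. On deviations it was 0.56, 0.63 and 0.39 (rho 0.54, 0.54 and 0.26). These values too rested on inhibitor NC replicate 1: without it, r on deviations was 0.16 with IL6, 0.39 with OLR1 and -0.22 with AQP9. The r with AQP9 on deviations was also 0.17 without inhibitor NC replicate 3 and 0.79 without miR-375 inhibitor replicate 1, and that with OLR1 was 0.86 without inhibitor NC replicate 2.

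**Figure D2:**
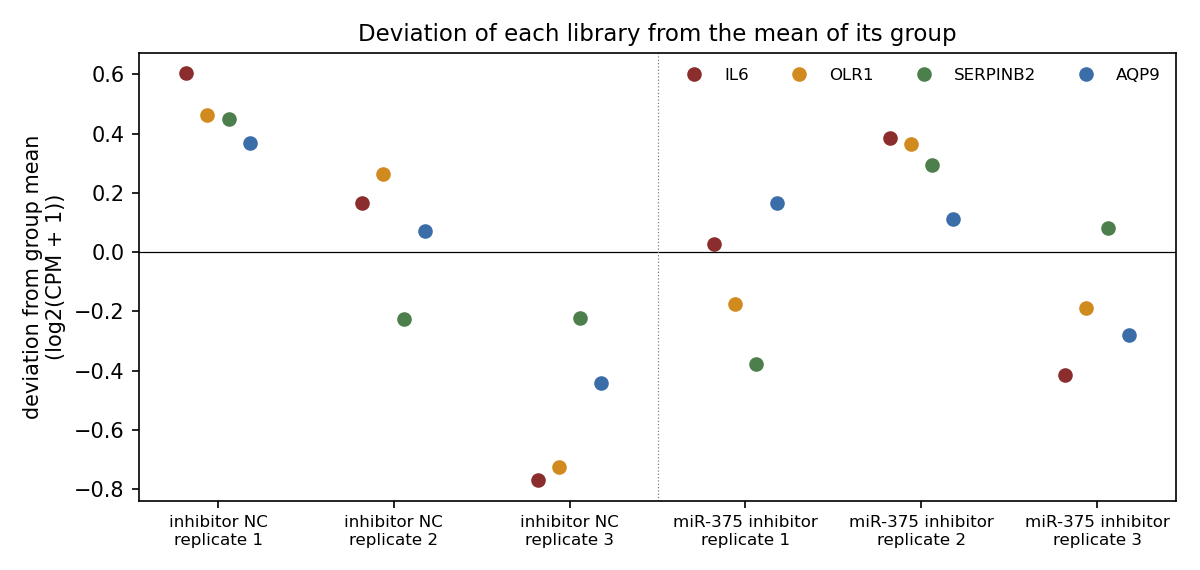
Deviation of each library from its group mean on the log2(CPM + 1) scale, for IL6, OLR1, SERPINB2 and AQP9, with 1 point per gene and library and the groups parted by the dotted line. All 4 genes lie above 0 in inhibitor NC replicate 1 and below 0 in inhibitor NC replicate 3, where IL6 is at -0.77 and OLR1 at -0.73.

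Other genes reached correlations as high as those between members. Of the 14150 other genes at that mean count, 110 (0.777%) were closer to IL6 on levels than OLR1 was, and 99 (0.700%) were closer than AQP9. From the other side, 57 (0.403%) were closer to OLR1 than IL6 was, and 27 (0.191%) closer to AQP9. Levels hold the group difference that chose the members, so nothing is read from how small these shares are. On deviations 386 and 343 genes were closer to IL6, or 2.73% and 2.42%, and 255 and 166 closer to OLR1 and AQP9, or 1.80% and 1.17%. For IL6 with SERPINB2 on deviations 3588 genes (25.4%) were closer to IL6 and 2536 (17.9%) closer to SERPINB2. In the order of the names, the numbers on deviations were 1188 (8.40%) and 1079 (7.63%) for OLR1 with AQP9, 2923 (20.7%) and 1950 (13.8%) for OLR1 with SERPINB2, and 3875 (27.4%) and 4601 (32.5%) for SERPINB2 with AQP9. The points share their library and its normalization, and the correlations are given with no p.

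The counts of the members were also set against those of IL6 within each library, which needs no normalization. OLR1 made up 16.8%, 19.0% and 15.2% of the summed counts of OLR1 and IL6 in inhibitor NC replicates 1, 2 and 3, and 13.5%, 18.0% and 18.0% in miR-375 inhibitor replicates 1, 2 and 3. The share thus moved 1.41-fold at most, while the level of IL6 itself moved 4.57-fold over the same libraries. All 6 exact Clopper-Pearson 95% intervals held the range from 14.9% to 20.7%, so a difference in share between libraries was not detectable at this depth. Intervals and floors cover counting error only, and the share compares libraries, not the 2 genes, whose lengths enter it.

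SERPINB2 made up between 3.54% (95% interval 0.973% to 8.82%) of its sum with IL6, in miR-375 inhibitor replicate 1, and 12.8% (6.77% to 21.2%), in miR-375 inhibitor replicate 3. AQP9 made up between 2.38% (0.290% to 8.34%), in miR-375 inhibitor replicate 3, and 6.84% (2.998% to 13.0%), in miR-375 inhibitor replicate 1. For each of these genes too the intervals of all 6 libraries overlapped, so their lower counts leave wide limits on how closely they followed IL6.

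A term the selection did not use is the replicate number, tested for every gene in an edgeR model with replicate number and group. The labels give no reason why same-numbered libraries should be alike. The term does not tell a deviation shared by same-numbered libraries from that of a single library: without miR-375 inhibitor replicate 3, which leaves inhibitor NC replicate 3 with no library of its number, the edgeR adjusted p of IL6 was still 2.20e-08. Over all genes it gave an adjusted p under 0.05 for 696 of 20755, or 3.35%, and for IL6 and OLR1 of the 4 members. Of the 63 genes on the study's list, from which the members come, it did so for 10, or 15.9%. The edgeR adjusted p was 8.47e-12 for IL6, which was below its group mean in replicate 3 of both groups, by -0.77 in inhibitor NC and -0.42 in miR-375 inhibitor on the log2(CPM + 1) scale. For OLR1, with -0.73 and -0.19 in the same libraries, the edgeR adjusted p was 0.00645. AQP9, with -0.44 and -0.28, had an edgeR adjusted p of 0.289, and SERPINB2, with -0.22 and 0.08, had 0.963. The number of genes called was 44 by DESeq2, 255 when genes with fewer than 10 counts over all libraries were left out and 195 with filterByExpr, and the edgeR adjusted p of IL6 was 0.00394 and 0.0130 under those 2 filters. Both calls rested on inhibitor NC replicate 3. Without it the edgeR adjusted p was 0.206 for IL6 and 0.9996 for OLR1, and 118 genes were called. The call for OLR1 was also lost without miR-375 inhibitor replicate 2, with an edgeR adjusted p of 0.0894, and when genes with fewer than 10 counts over all libraries were left out, with 0.139. The number of genes called was also 1173 without inhibitor NC replicate 1, 1607 without miR-375 inhibitor replicate 1, 295 without miR-375 inhibitor replicate 2 and 177 without miR-375 inhibitor replicate 3.

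The genes whose levels were most like those of each member were taken from those with a symbol that averaged 10 counts or more, by Pearson's r over the 6 libraries. Nearest to IL6 were SERPINF1, a secreted serpin also called PEDF (r = 0.99), DHRS3, a retinaldehyde reductase (r = 0.99), and ALDH1L2, a mitochondrial folate enzyme (r = 0.99). SERPINF1 had 58, 40 and 20 counts in inhibitor NC and 15, 20 and 10 in miR-375 inhibitor. Nearest to OLR1 were DHRS3 (r = 0.99), with 119, 110 and 49 counts against 36, 55 and 31, the galactosyltransferase B4GALT4 (r = 0.99) and the centriole protein SPICE1 (r = 0.99). Over all 14150 genes, SERPINF1, DHRS3 and ALDH1L2 ranked 8, 14 and 27 with IL6. With OLR1, DHRS3, B4GALT4 and SPICE1 ranked 2, 11 and 17. SERPINF1, DHRS3 and ALDH1L2 showed the low inhibitor NC replicate 3 seen in IL6 and OLR1, and all 3 are on the study's list, selected on the same contrast. Listed genes with a symbol were always paired and most other genes were not, so their presence among the named neighbours partly follows from the pairing.

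Among genes with a symbol, nearest to AQP9 were IFIT1, an interferon-induced RNA-binding protein (r = 0.98), SERPINF1 (r = 0.98) and TSC22D3 (r = 0.95). TSC22D3 encodes a glucocorticoid-induced leucine zipper protein. Over all 14150 genes, IFIT1, SERPINF1 and TSC22D3 ranked 20, 33 and 121. IFIT1 had 183, 104 and 19 counts in inhibitor NC and 21, 30 and 8 in miR-375 inhibitor. Its highest CPM was 25.5 times its lowest, and it too is on the study's list, selected on the same contrast. SERPINB2 had other neighbours: the kinase PIM2 (r = 0.97), the ferroxidase HEPH (r = 0.96) and the interferon-induced GTPase MX1 (r = 0.95). Over all 14150 genes, PIM2, HEPH and MX1 ranked 14, 22 and 41. Their counts ranged less widely, as a ratio of highest to lowest, than those of SERPINB2, with PIM2 between 178 and 226, HEPH between 100 and 129 and MX1 between 61 and 94.

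On deviations from the group means, the nearest genes were again taken from those with a symbol. For IL6 they were the potassium channel KCND1, SH3BGRL and the interferon receptor IFNAR2, each at r = 0.99. Over all 14150 genes, KCND1, SH3BGRL and IFNAR2 ranked 43, 57 and 59. Those nearest to OLR1 were ECE2, DHRS3 and the cystathionine synthase CBS, each at r = 0.99. ECE2, DHRS3 and CBS ranked 16, 20 and 32 over all genes. PIM2 (r = 0.997, rank 2), KCNH8 (r = 0.99, rank 6) and HEPH (r = 0.99, rank 13) were nearest to SERPINB2. Nearest to AQP9 were ARMCX5 (r = 0.99, rank 17), IFNGR2 (r = 0.98, rank 50) and TSC22D3 (r = 0.98, rank 57). Of these genes DHRS3 alone had an edgeR adjusted p under 0.05 in the group contrast, at 0.00151 with a log2 fold change of -1.16 (SE 0.23). By edgeR that call was lost without inhibitor NC replicate 1 (adjusted p = 0.499, log2 fold change -0.88) and under the stricter count filters (0.2002 and 0.2019). DESeq2 gave DHRS3 no adjusted p. An r of 0.9 or more on deviations was reached by 839 of 14150 genes with IL6, 734 with OLR1, 628 with AQP9 and 321 with SERPINB2.

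The other genes of the members' pathways were taken from 8 lists of 132 genes in all, without the members. A symbol was paired for 36 of them, 27 had a count in some library, and the 96 others were not analysed here. No gene was paired in 3 lists: IL-6 receptor and STAT3 signalling, aquaporins and aquaglyceroporins, and scavenger and C-type lectin receptors. The companions closest to IL6, AQP9 and OLR1 in function were thus not analysed here. By edgeR, 1 of the 27 tested genes was called lower in miR-375 inhibitor and 0 higher, 3.70% and 0% of those tested, beside 1.2% and 0.487% over all genes. The shares are not alike, since a gene on the study's list was always paired where that list gave a symbol. No excess is read from them. DESeq2 gave an adjusted p to 8 of the 27, not to SERPINF1, and called 0 of those 8. The 18 list genes that averaged 10 counts or more had a median log2 fold change of -0.08, against -0.002 over all genes of that level, and -1.18 for the 4 members.

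The gene called was SERPINF1, of the serpins and plasminogen activation list, where 4 of 16 genes were paired. Its log2 fold change was -1.36 (SE 0.33) with an edgeR adjusted p of 0.0126 and its counts in all 3 miR-375 inhibitor libraries were below those of inhibitor NC replicates 1 and 2. In replicate 3 of inhibitor NC and replicate 2 of miR-375 inhibitor it had the same count. It is on the study's list and is not independent of the members' selection. By edgeR the call was lost when genes with fewer than 10 counts over all libraries were left out (adjusted p = 0.232), and without inhibitor NC replicate 1 (0.618), miR-375 inhibitor replicate 1 (0.0630) or miR-375 inhibitor replicate 3 (0.130). The number of list genes called was 0 without inhibitor NC replicate 1, without miR-375 inhibitor replicate 1 or without miR-375 inhibitor replicate 3, and 2 without inhibitor NC replicate 3 or without miR-375 inhibitor replicate 2.

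In IL-1, TLR and NF-kB signalling, 7 of 25 genes were paired and none was called in the edgeR fit by group with all libraries. NFKBIZ, a nuclear regulator needed for induction of IL6 in several cell types, had 886, 1060 and 930 counts in inhibitor NC and 767, 864 and 700 in miR-375 inhibitor. Its log2 fold change was -0.27 (SE 0.08) with an edgeR adjusted p of 0.0640. XIAP had -0.24 (SE 0.10), with an edgeR adjusted p of 0.294. Among cytokines and chemokines, 4 of 21 were paired, and THPO, at -0.60 (SE 0.43), had an edgeR adjusted p of 0.679.

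Of the cytokine and chemokine receptors, 12 of 15 were paired and none was called in the edgeR fit by group with all libraries. IL20RB had a log2 fold change of -0.35 (SE 0.23) with an edgeR adjusted p of 0.648, and IL10RB -0.12 (SE 0.09) with 0.711. Of the acute phase, complement and coagulation proteins, which IL-6 induces in liver, 9 of 14 were paired and 5 of these had no count in any library. CFP had 0.07 (SE 0.29) and CP -0.06 (SE 0.17), with edgeR adjusted p of 0.957 and 0.936.

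The labelled cell type was set against marker lists. Of 17 epithelial markers 11 were paired, with summed counts of 1194, 1376 and 1423 in inhibitor NC and 1130, 1053 and 1289 in miR-375 inhibitor. In CPM the sums were 81.9, 84.4 and 87.9 in inhibitor NC and 74.9, 71.2 and 79.3 in miR-375 inhibitor, so the sum was lower in every miR-375 inhibitor library. Such an order was seen in 8.83% of the 14154 single genes averaging 10 counts or more. Most of each sum was CXADR, with a log2 fold change of -0.12 (SE 0.07) and an edgeR adjusted p of 0.567. Of the scarcer markers, TP63, CLDN8 and LIPH had -0.70, -0.48 and -0.19, and RIPK4, MUC4 and MUC20 had 0.42, 0.69 and 0.53. The most abundant was the junction protein CXADR, with 894 to 1220 counts, while ILDR1, TFF1 and TFF3 had 0 counts in all 6 libraries, which allows up to 3 counts in each. The defining keratins, CDH1 and EPCAM, and the 6 milk protein genes were not paired and were not analysed here, so the epithelial label was checked only in part. CLDN1, a tight junction protein, had a log2 fold change of -0.53 (SE 0.13) with an edgeR adjusted p of 0.0219. It had 200, 182 and 160 counts in inhibitor NC and 129, 114 and 126 in miR-375 inhibitor, a lower value in each miR-375 inhibitor library, and is named outside the rule for markers after its value was seen. By edgeR that call was lost without inhibitor NC replicate 1 (adjusted p = 0.491), inhibitor NC replicate 2 (0.0560), miR-375 inhibitor replicate 1 (0.0649) or miR-375 inhibitor replicate 3 (0.0971), and under the stricter count filters (0.176 and 0.178). DESeq2 gave CLDN1 no adjusted p.

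AQP9 and OLR1 are also expressed by leukocytes. Of 15 leukocyte markers 13 were paired, with summed counts of 21, 25 and 27 in inhibitor NC and 34, 26 and 35 in miR-375 inhibitor. In CPM the sums were 1.44, 1.53 and 1.67 against 2.25, 1.76 and 2.15, higher in every miR-375 inhibitor library. UBASH3A, the most abundant with 16 to 28 counts, carried that order: without it, a choice made after seeing the data, the summed counts were 5, 7 and 11 against 13, 9 and 7, or 0.343, 0.429 and 0.680 CPM against 0.862, 0.609 and 0.431, and the groups overlapped. CD86, TRAT1, VSIG4 and P2RY12 had 0 counts in all libraries. Apart from UBASH3A no paired leukocyte marker exceeded 7 counts in any library.

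Of 12 fibroblast markers 8 were paired, with summed counts of 29537, 34094 and 32839 in inhibitor NC and 32320, 32573 and 34084 in miR-375 inhibitor. COL6A1 was the most abundant, at 11738 to 13993 counts, and no paired marker had 0 counts in all libraries. In CPM the sums were 2025, 2091 and 2029 in inhibitor NC and 2142, 2203 and 2097 in miR-375 inhibitor, so the sum was higher in every miR-375 inhibitor library. The log2 fold changes of the abundant COL6A1, FSTL1, CCDC80 and COL6A2 were 0.11, -0.01, 0.10 and 0.09, with edgeR adjusted p of 0.291, 0.938, 0.484 and 0.628. LUM, named after its values were seen and itself on the study's list selected on the same contrast, had 11, 7 and 0 counts in inhibitor NC and 0, 0 and 2 in miR-375 inhibitor. Its edgeR adjusted p in the group contrast was 0.224. The part of the epithelial, leukocyte and fibroblast markers in the members' values was not tested.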

How the data were processed

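RNA-seq was done on 6 MAC-T libraries, 3 per group by the labels. The authors deposited raw counts per gene, and the submitters' processing notes name HISAT2, featureCounts and UMD3.1, with no version or strand setting given in the sources used here. The build was not checked. Members and lists were chosen with earlier results of these data known. Symbols came from the study's supplementary lists, of which 1997 rows of the longer were used here, and from RefSeq by gene number, and 1552 identifiers were paired. Counts were fitted in edgeR 4.0.16 (R 4.3.3; TMM, quasi-likelihood F test, Benjamini-Hochberg) over the 20755 genes counted in 1 library or more, by group, or by replicate number and group for the replicate term. Descriptions used log2(CPM + 1). Named genes were the members, the 3 most like each among genes with a symbol, and list genes with an adjusted p under 0.05. Also named were the 2 with the largest change in each list among genes averaging 10 counts or more, and the most abundant and undetected markers. No pair of libraries agreed within counting noise. The model was tested on simulated data. Alternatives were DESeq2 1.42.0, its size factors, stricter count filters, pseudocounts of 0.1 and 5, a block and each library left out.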

Additional observations from a re-analysis of the deposited data

How the results depend on the processing

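The members' log2 fold changes stayed negative in all 43 alternatives run, and AQP9 was filtered out by filterByExpr and has no value there. These alternatives refit the libraries on which the members were selected as lower, so the shared sign is no independent support. Leaving out each library gave -1.46 to -0.79 for IL6, -1.57 to -0.91 for OLR1, -1.48 to -0.63 for SERPINB2 and -1.76 to -0.96 for AQP9. With DESeq2 the SEs were 0.49, 0.42, 0.56 and 0.70, larger than edgeR's. The group contrast gave 350 genes, 74 by DESeq2, 0 by edgeR with at least 10 counts in total (1972 at an unadjusted p under 0.05) and 0 with filterByExpr (1844), and 0 to 756 with a library left out. With the replicate block it gave 840 genes and called 2 list genes, and the SE of IL6 was 0.12. Same-numbered libraries correlated at -0.06, 0.15 and 0.34 in their deviations, and 3 of 6 libraries correlated best with their own number, so a pairing by number was not established. List genes called were 1, with 0 by DESeq2 (of 8 with an adjusted p, SERPINF1 not among them), with at least 10 counts in total and with filterByExpr (edgeR), and 0 to 2 with a library left out. The replicate number term gave 696 genes, 44 by DESeq2, 255 with at least 10 counts in total, 195 with filterByExpr, and 118 to 1607 with a library left out. DESeq2 gave the members no adjusted p. The edgeR adjusted p of IL6 was 1.97e-18 to 0.206 with a library left out, and 0.00394 and 0.0130 under the 2 stricter filters. That of OLR1 was 0.139 and 0.180 under those filters and 9.60e-05 to 0.9996 with a library left out. With a library left out, r on deviations ran from 0.16 to 0.75 for IL6 with SERPINB2, 0.39 to 0.86 for OLR1 with SERPINB2, 0.50 to 0.98 for OLR1 with AQP9 and -0.22 to 0.79 for SERPINB2 with AQP9, which was 0.10 with a pseudocount of 0.1. On levels r ran from 0.47 to 0.84 for IL6 with SERPINB2, 0.59 to 0.91 for OLR1 with SERPINB2 and 0.19 to 0.86 for SERPINB2 with AQP9. The within-group SD with a library left out was 0.37 to 0.66 for IL6 and 0.27 to 0.57 for OLR1. With a pseudocount of 5 it was 0.23 for OLR1, 0.13 for SERPINB2 and 0.10 for AQP9, and with 0.1 it was 0.73 for SERPINB2 and 0.82 for AQP9, which follows from the size of the pseudocount beside levels near 1 CPM. The cause of the other changes was not tested. Depth limits SERPINB2 and AQP9 most, with 98 and 63 counts over all libraries.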
